A study of Mus musculus with 10 samples.

Results

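A small set of CpG sites in the RRBS table of mouse prospermatogonia was read at coverages far above the rest. Sites were selected on read coverage alone: every table entry on chromosomes 1 to 19 whose coverage, averaged over the 10 samples, was at least 300 reads. This selection held 974 CpG cytosines of the 1348062 on chromosomes 1 to 19, X and Y, and of the 1328689 on chromosomes 1 to 19. Members at most 1 kb apart were joined into loci, which gave 98 loci on 18 of the 19 chromosomes, numbered L1 to L98 in table order. Multi-copy sequence is a known setting of extreme coverage, since reads of several copies can be placed at one of them.

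Reduced representation bisulfite sequencing (RRBS) reads CpG-rich fragments between CCGG cutting sites. After bisulfite treatment an unmethylated cytosine is read as T, so the methylation level of a CpG is its C reads as a percentage of all its reads. The cells were F1 prospermatogonia, male germ cells of the fetal testis, from C3H/HeN mice in late gestation. The dams of the 5 control samples drank tap water, and the dams of the 5 samples of the arsenic group drank tap water with sodium arsenite during gestation. The cells were isolated magnetically by their surface Thy1, and each sample was a pool of testes from many embryos, so the pool is the replicate. The DNA table holds no expression values, so the labelled cell type was not checked from it. A level between 0 and 100% in such a pool can come from different copies, whose bases can also differ, or from different cells. These sources cannot be told apart.

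Ribosomal RNA genes, tRNA genes, the 5S and 4.5S RNA arrays, satellites and transposon-derived repeats are the best known multi-copy sequences of the mouse genome. Ribosomal DNA encodes the RNA core of the ribosome and stands in long arrays of near-identical units, part of which are methylated and silent in many cell types. Satellites are short units repeated head to tail, typically at centromeres. Late gestation is the time when mouse prospermatogonia regain DNA methylation over their genome.

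Sequences of 6 loci, chosen for their coverage, level or position, and of 1 matching stretch are printed here from the plus strand of GRCm38, the assembly behind mm10. Capitals mark CpGs that are members on at least 1 strand. The first pair of sequences comes from L54 and L52, the loci with the highest mean coverage, which lie close together on chromosome 2 and share a repeated sequence.
L54, chr2:98666362-98666521: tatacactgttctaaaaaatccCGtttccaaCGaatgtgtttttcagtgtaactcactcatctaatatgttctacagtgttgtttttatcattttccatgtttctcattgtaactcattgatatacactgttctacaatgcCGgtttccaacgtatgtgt
L52, chr2:98662545-98662704: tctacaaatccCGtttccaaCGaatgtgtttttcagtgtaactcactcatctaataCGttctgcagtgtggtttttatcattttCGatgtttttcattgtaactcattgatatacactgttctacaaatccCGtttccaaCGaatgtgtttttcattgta
The next pair shows L73 on chromosome 6 and the stretch of the 18S ribosomal RNA gene on chromosome 17 that it matches. No CpG of the chromosome 17 stretch was in the table, so it carries no capitals.
L73, chr6:3201414-3201565: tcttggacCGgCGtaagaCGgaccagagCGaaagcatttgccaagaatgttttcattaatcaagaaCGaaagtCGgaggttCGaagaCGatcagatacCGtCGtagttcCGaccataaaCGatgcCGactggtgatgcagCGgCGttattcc
18S stretch, chr17:39847325-39847476: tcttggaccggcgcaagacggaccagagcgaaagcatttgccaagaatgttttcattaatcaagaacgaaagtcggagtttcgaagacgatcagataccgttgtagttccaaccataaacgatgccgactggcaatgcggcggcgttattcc
The last sequences show loci at opposite ends of the methylation scale, L75 near a 4.5S RNA gene and the tandem repeat of L50, and a locus beside a cluster of tRNA genes, L6.
L75, chr6:47651264-47651428: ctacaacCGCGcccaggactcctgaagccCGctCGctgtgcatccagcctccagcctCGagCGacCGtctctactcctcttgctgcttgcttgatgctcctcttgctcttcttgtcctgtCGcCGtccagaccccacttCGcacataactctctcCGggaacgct
L50, chr2:21300075-21300282: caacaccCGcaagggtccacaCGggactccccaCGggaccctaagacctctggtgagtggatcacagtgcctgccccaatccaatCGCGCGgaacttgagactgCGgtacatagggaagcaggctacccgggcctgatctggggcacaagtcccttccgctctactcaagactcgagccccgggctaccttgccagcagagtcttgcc
L6, chr1:171063985-171064122: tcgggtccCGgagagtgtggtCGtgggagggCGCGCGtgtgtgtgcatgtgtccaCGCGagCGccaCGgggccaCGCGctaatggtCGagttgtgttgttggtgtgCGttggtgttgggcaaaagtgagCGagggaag

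The members were unevenly placed. Chromosome 17 held 551 of the 974, of which 540 formed the single ribosomal DNA locus L45. Chromosome 2 held 76 members, chromosome 6 held 63 and chromosome 16 held 49, and no member lay on chromosome 15. Of the 98 loci, 34 consisted of 1 CpG, 45 had at least 3 members and 14 had at least 10. Mean coverage was under 500 reads at 72 loci and at least 1000 reads at 8. Near the threshold, the last members inside had mean coverages of 300.1 reads (chr1:171070437, level 3.16%), 300.3 (chr17:39845715, 31.4%) and 300.5 (chr5:15045282, 51.7%), and the first CpGs outside had 299.9 (chr17:39845728, 34.2%), 299.9 (chr17:39845711, 28.3%) and 299.7 (chr5:68221895, 90.2%), so the threshold cut through the ribosomal locus itself. Coverage of at least 300 reads also occurred outside the selected chromosomes, at 28 CpGs of the X, 14 of the Y, 40 of the mitochondrial genome and 83 of unplaced or random scaffolds.

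Repeats were the most frequent annotation of members outside the ribosomal locus. Of these 434 CpGs, 179 were in soft-masked repeats (41.2%), 83 were intergenic, 74 intronic, 42 in promoters, 32 at transcription termination sites and 24 in exons. In the reference sequence 49.8% of them were soft-masked, against 1.85% of the ribosomal members. Members were less often inside a CCGG site, at 8.52% against 20.9% of the other CpGs on chromosomes 1 to 19, and their median distance to the nearest CCGG was 44 b against 35 b. The 52 members of the chromosome 2 repeat lay a median of 329.5 b from a CCGG.

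Copy number in the reference was then examined, since the selection used reads and not sequence. The 50 bases around a CpG occurred more than once in the assembled genome at 290 of the 974 members (29.8%) against 7.19% of the other CpGs, and after conversion of C to T the shares were 35.8% and 9.47%. The share outside the ribosomal locus was 61.1%, while in the ribosomal locus it was 4.63%. By alignment of whole loci with 100 b on each side (identity of at least 90% over at least 80% of the window), 88 of the 98 loci had a further copy on chromosomes 1 to 19, X or Y, 64 had at least 10 copies and 30 at least 1000. The other 10 loci had none, and these 10 held 644 of the 974 members. They were the ribosomal locus L45, all 3 chromosome 2 loci (L52, L53 and L54), L12, L14, L30, L43, L75 and L78. Of the 8 loci with mean coverage of at least 1000 reads, 5 (L45, L52, L53, L54 and L78) had no second full copy by this measure. A long window such as that of L45 meets the measure only if most of its length recurs, and parts of L52 and L54 did align to unplaced scaffolds.

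**Figure D1:**
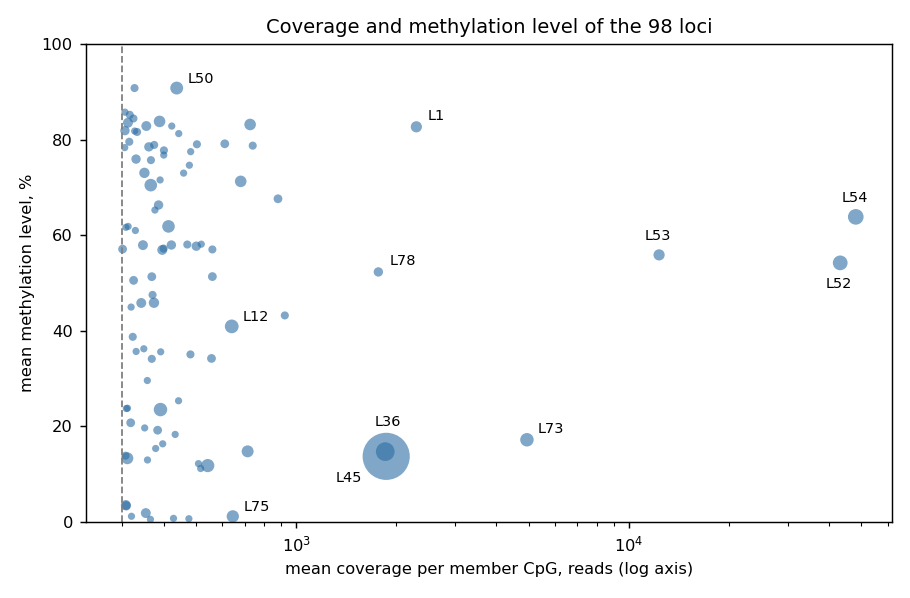
Each point is 1 of the 98 loci. The horizontal log axis gives mean coverage per member CpG in reads, the vertical axis the mean methylation level of the 10 samples in percent, and larger points hold more members. The dashed line is the threshold of 300 reads. L52, L53 and L54 stand alone at the right with levels of 54.2 to 63.8%, while the ribosomal loci L45 and L73 lie at 13.8 and 17.2%.

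The 974 members included 540 ribosomal CpGs with low levels. The mean level of all members was 28.6% and the median level 15.9%, against 45.5% and 55.8% for the other CpGs on chromosomes 1 to 19. Outside the ribosomal locus the mean was 47.0% and the median 53.4%. By locus, 23 had a mean level under 20%, 60 had 20 to 80% and 15 had over 80%. The 30 loci with at least 1000 copies spanned 0.578 to 90.8% with a median of 35.9%, and the 10 loci without a further copy spanned 1.205 to 85.2% with a median of 53.3%. Loci of every copy class therefore ranged widely in level.

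The highest coverage lay in the chromosome 2 repeat. L54 (chr2:98666262-98667255, 24 members, overlapping the annotated gene Gm10800) had a mean coverage of 48106 reads, L52 (chr2:98662265-98662795, 20 members, Gm10801) had 43193 and L53 (chr2:98665063-98665193, 8 members, between them) had 12331. L52 and L53 aligned to each other at 93.7% identity over 302 b, and L53 matched itself at a shift of 120 b with 93.3% identity, as tandem repeats do. The same sequence family took in L78 (chr6:103649168-103649288, an intron of the cell adhesion gene Chl1; mean coverage 1767) and L15 (chr12:3110027; 376). The family's mean levels lay between 52.3 and 65.3%.

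Coverage of these 52 CpGs was concentrated on a few positions and on the minus strand. The minus-strand CpG at chr2:98666385 had a mean of 370722 reads, the highest of the table on chromosomes 1 to 19, and its neighbours at chr2:98666394 and chr2:98666504 had 368586 and 358711. The plus strand of the first of these CpGs was read 2469 times. In the 17 CpGs of the array with members on both strands, the strands differed in coverage by a median of 20.4-fold, against 1.55-fold in 201 such CpGs of the ribosomal locus and 1.43-fold in 311522 CpG pairs outside the selection.

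Neighbouring CpGs in the same array differed sharply in measured level. In the sequence of L54 printed above, the first CpG in capitals had a level of 3.51% on the minus strand (chr2:98666385) and the second 66.2% (chr2:98666394). In L52 the first pair in capitals had, on the minus strand, 1.72% (chr2:98662557) and 64.2% (chr2:98662566), and the CpG at chr2:98662602 had 4.75%. At 120 b further along L52, the next such pair was intermediate at both CpGs, with 58.8% at chr2:98662677 and 63.3% at chr2:98662686. The plus strand of the first L54 CpG had 60.3% against 3.51% on the minus strand. In the array 5 of 17 CpGs differed between strands by over 20 points, with a median difference of 13.2 points, compared with 1 of 201 and a median of 6.01 points in the ribosomal locus and 2.51 points in the CpGs outside the selection. Among CpGs with a level of 20 to 80% the median differences were 13.7 points in the array (16 CpGs), 2.21 points in the ribosomal locus (21 CpGs) and 5.74 points outside the selection, so the order of the last pair depended on level. Base differences between repeat copies can read as methylation differences. The printed L54 sequence, for example, has tg where L52 has the CpG at chr2:98662602. How far such differences set the levels of the array was not tested.

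Among samples, the array varied in coverage more than most loci. Relative to the median coverage of the sample, the 52 CpGs were read 1692, 1681, 1154, 1160 and 1313 times as often in control samples 1 to 5, and 986, 765, 1474, 1164 and 1205 times as often in arsenic samples 1 to 5. The lowest value belonged to arsenic sample 2 and the highest to control samples 1 and 2, and the groups overlapped. The highest value was 2.21 times the lowest. Levels were steadier. The read-weighted level of the array was 48.6, 48.2, 49.9, 50.02 and 49.9% in the control samples and 48.2, 51.6, 49.0, 54.3 and 55.9% in the arsenic samples, with arsenic samples 4 and 5 above all others and arsenic sample 1 narrowly the lowest. In the unweighted mean over the 52 CpGs, control sample 1 was the lowest (54.2%) and arsenic sample 1 had 58.3%. Arsenic samples 4 and 5 were again the highest (64.0 and 65.2%).

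The ribosomal DNA locus L45 (chr17:39843014-39848710) held 540 members and a mean coverage of 1865 reads. It spans the non-coding gene models Gm26917, CT010467.1, Gm42418 and AY036118 and the RefSeq gene Rn18s-rs5, which corresponds to the 18S RNA of the small ribosomal subunit. Its mean level was 13.8%, with single CpGs from 0.431 to 46.2%, and 470 of its 540 members had a level under 20%. The 124 members inside Rn18s-rs5 had a mean level of 11.2% ± 0.499 (control) and 10.9% ± 2.55 (arsenic; SD, n = 5). The 356 members before it had 15.03% ± 1.23 and 15.04% ± 3.46, and the 60 members after it had 11.7% ± 0.394 and 11.8% ± 2.76.

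Level was not even along the locus. In steps of 300 b, it was 9.33% in the first step and 7.43% about 1.2 kb further on in the control group, and rose to 32.7% ± 7.93 in the step from chr17:39846014 to chr17:39846313, which ends just before Rn18s-rs5. The next step, at the start of the 18S gene, was back at 11.6% ± 1.29. In the peak step the 31 members had levels of 23.5, 27.7, 36.8, 43.9 and 31.7% in the control samples and 23.7, 35.1, 37.2, 35.7 and 35.9% in the arsenic samples. The peak step therefore varied more between control samples than any other step of the locus, and its groups overlapped. The lowest step lay inside the 18S gene (10 members from chr17:39846914), with 3.88% ± 0.461 (control) and 3.85% ± 1.90 (arsenic).

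**Figure D2:**
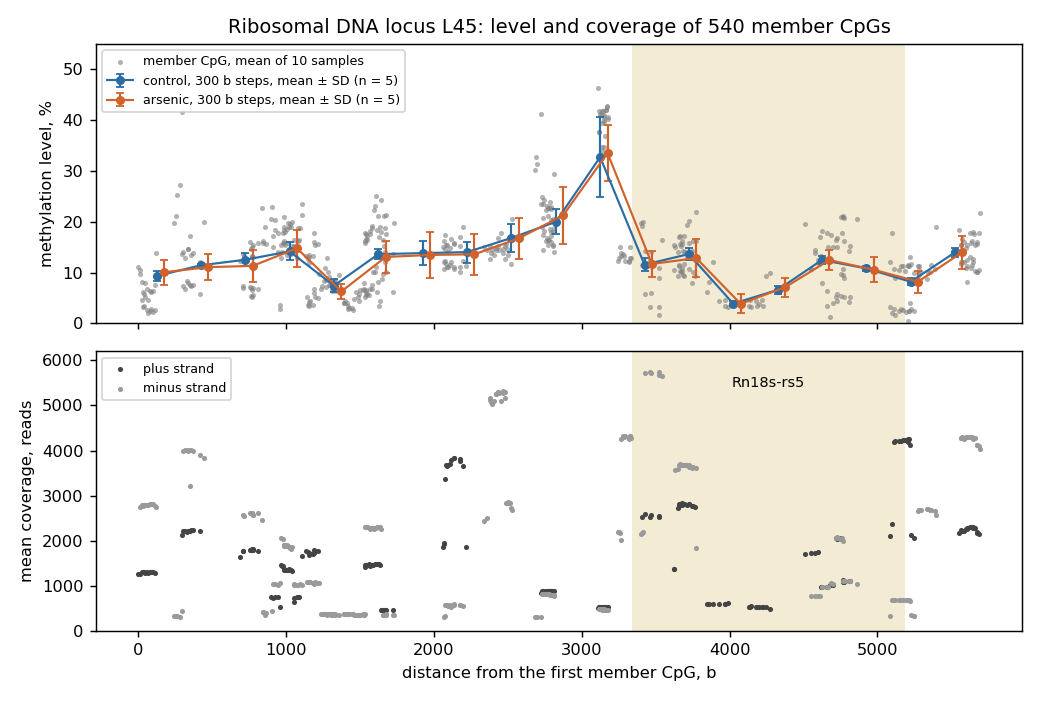
The upper panel gives the methylation level in percent and the lower panel the mean coverage in reads of the 540 members of L45, by distance in bases from the first member. Grey points are single CpGs, coloured points are means of 300 b steps with SD over the 5 samples of a group, and the shaded span is Rn18s-rs5. Both groups follow the same course, with a peak of 32.7% (control) and 33.5% (arsenic) just before the 18S gene.

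Over the whole of L45, the mean level of the 540 CpGs was 12.8, 13.8, 14.2, 15.01 and 13.1% in the control samples and 9.11, 12.8, 17.6, 13.8 and 15.4% in the arsenic samples. Arsenic sample 1 was below and arsenic samples 3 and 5 above all control samples, so that the group means were nearly equal (13.8% ± 0.894 and 13.7% ± 3.17; SD, n = 5) while the spread in the arsenic group was wider. Coverage relative to the sample median was 56.2, 47.8, 53.3, 52.1 and 53.8 in the control samples and 73.7, 59.5, 53.8, 57.8 and 51.3 in the arsenic samples. The sample with the lowest ribosomal level, arsenic sample 1, was also the one with the highest ribosomal coverage. That sample had the lowest level of all 10 samples at 47 of the 98 loci and the lowest mean level over the rest of the table, at 35.7% in the coverage-weighted mean without the members. At the other end, arsenic sample 5 had the highest level of all 10 samples at 44 of the 98 loci.

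L73 (chr6:3201422-3201557, 15 members, intergenic) matched part of the 18S gene. The stretch printed above matched chromosome 17 without gaps at 95.4% identity over 152 b, with 7 mismatches. It was read 4941 times on average, more than L45, with 15 CpGs on the plus strand only at a level of 17.8% ± 2.66 (control) and 16.6% ± 4.46 (arsenic; SD, n = 5). The 13 minus-strand CpGs of the same interval had a mean coverage of 67.3 reads and a level of 57.4% ± 7.89 and 50.2% ± 13.04, respectively. The matching 18S stretch on chromosome 17 had no CpG in the table, although L45 was covered on both sides of it. Per sample, the plus-strand level of L73 was 22.3, 17.6, 16.5, 17.3 and 15.3% in the control samples and 10.1, 15.9, 22.4, 16.2 and 18.6% in the arsenic samples, again lowest in arsenic sample 1.

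L36 (chr16:57391276-57391517, 41 members) lay in an intron shared by Cmss1, a gene of ribosome assembly, and Filip1l, and had a mean coverage of 1853 reads. Its sequence occurred 4 times in the assembled chromosomes, the nearest match being on chromosome 15 at 98.2% identity. Those chromosomes hold no full ribosomal DNA unit, so whether L36 is itself ribosomal sequence was not tested. Its level was 14.9, 14.02, 14.7, 15.2 and 14.1% in the control samples and 10.6, 12.2, 20.9, 14.7 and 16.1% in the arsenic samples. The order of the arsenic samples was like that of L45, with arsenic sample 1 lowest and arsenic sample 3 highest, and coverage relative to the median was highest in arsenic sample 1 (71.1 against 48.9 to 58.0 in the other 9 samples).

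**Figure D3:**
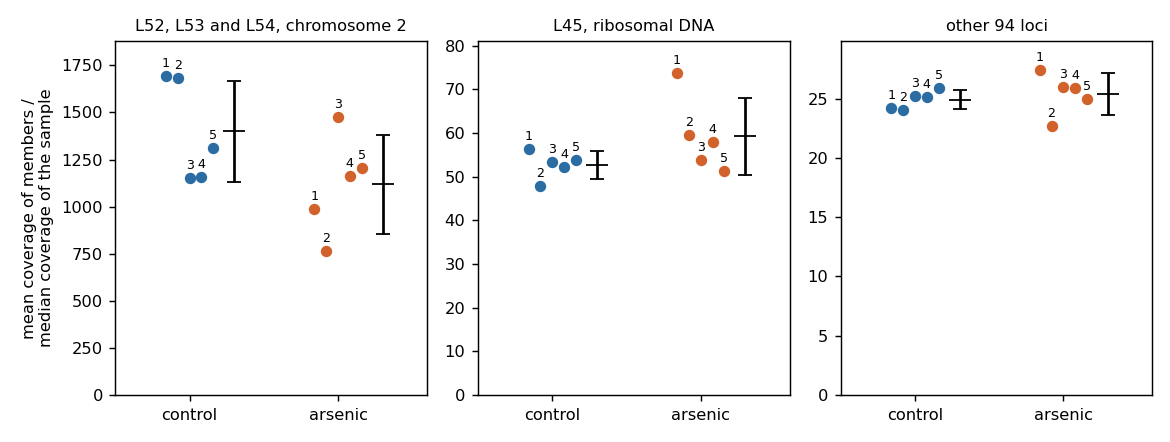
Each panel gives the mean coverage of the members divided by the median coverage of the sample, a ratio without unit, for the chromosome 2 array, the ribosomal locus and the other 94 loci. Points are the samples with their replicate number, and bars show mean ± SD (n = 5). The array ranges from 765 to 1692, the ribosomal locus from 47.8 to 73.7 and the other loci from 22.7 to 27.4.

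Loci in or near small RNA arrays stood at different levels. L75 (chr6:47651272-47651420, 11 members) had no second full copy and lies 3501 b from Rn4.5s, the gene of a small RNA of rodents. L76 (chr6:47771938-47772026, 5 members) belongs to a unit repeated 16 times on chromosome 6 with a median spacing of 4337 b. Both were almost unmethylated. The level of L75 was 1.07, 1.35, 1.17, 0.774 and 0.988% in the control samples and 1.599, 0.992, 1.26, 1.37 and 1.47% in the arsenic samples, and L76 had 1.86% ± 0.451 and 1.91% ± 0.502 (SD, n = 5). The groups overlapped at both loci.

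In the 5S ribosomal RNA array of chromosome 8, a unit repeated 51 times with a median spacing of 1696.5 b, L93 and L94 (5 members each, chr8:123563632-123563669 and chr8:123612748-123612785) sit between 5S genes, 617 and 627 b from the nearest one. They were intermediate, at 55.8% ± 3.09 and 58.5% ± 2.41 (control) and 58.0% ± 4.44 and 57.3% ± 6.92 (arsenic). The 3 loci of the tRNA cluster on chromosome 1 differed among themselves. L6 (chr1:171063993-171064114, 14 members), 50 b from the glutamic acid tRNA gene n-TEctc5, had a mean level of 11.8%. L7, 6 b from the leucine tRNA gene n-TLcag6, had 19.2%, and L8, 1285 b from the nearest tRNA gene, had 3.58%. All 3 windows occurred 3 times in the cluster, with a median spacing of 7621 b for L6. L80 (chr6:114528560-114528921, 15 members) belongs to a unit repeated 61 times on chromosome 6 with a median spacing of 2439 b and had a level of 23.5%.

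At the upper end, L50 (chr2:21300083-21300412, 13 members) had a mean level of 90.8%. Its control samples had 89.1, 90.1, 91.7, 90.6 and 90.1%, and its arsenic samples 90.9, 91.1, 90.8, 91.1 and 92.3%. L50 matched itself at a shift of 208 b, and it shared this unit with L38 on chromosome 16 (90.8%) and L72 on chromosome 5 (81.9%). Whole windows of these loci had 4652 to 7512 matches in the genome. A second group of 3 loci, L1 in Cdk15 (chr1:59347232-59347474, mean coverage 2298), L9 and L55, had 1526 copies and levels of 82.7, 83.2 and 83.8%. L29 (chr13:79264233-79264344, 5 members) had 83.5%. A group of 15 loci sharing sequence had a median level of 78.5%, and a group of 30 loci had levels from 0.578 to 81.3%, over 46 members that need not lie at matching positions. All of these groups were formed by alignment after the values were known.

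Of 47 genes listed for known duplicated or ribosomal sequence, 43 were annotated, 25 had CpGs in the table and 10 held members. Besides the ribosomal and chromosome 2 gene models these were Sfi1, Pisd-ps1 and Sp140. L12 (chr11:3193356-3193628, 16 members) lies at the start of Sfi1, a spindle assembly gene, within the annotated span of Drg1. Of its members, 2 fall inside Sfi1. Its level was 40.5% ± 2.83 (control) and 41.3% ± 5.43 (arsenic; SD, n = 5). L11 is 1 CpG in the pseudogene Pisd-ps1 (chr11:3127214), with 57.5% ± 5.02 and 58.7% ± 11.5, and arsenic sample 1 stood at 39.3% and arsenic sample 5 at 68.3%. L3 (chr1:85611159-85611229, 2 members) in Sp140, a chromatin reader of the Sp100 family, had 35.6% ± 2.02 and 32.7% ± 4.89. The satellite gene models of chromosome 9 (Gm10718, Gm10719, Gm10721, Gm10722 and Gm26870) held between 2 and 51 table CpGs each with mean coverages of 26.8 to 60.4 reads and no member.

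The comparison of the groups asked whether gestational arsenic exposure went with other levels or other coverage at these loci. By the test of the study (logistic regression per CpG, q of at most 0.01 and a pooled difference of at least 10 percentage points over all 1348062 CpGs), 2 of the 974 members were differentially methylated cytosines (DMCs), 1 lower and 1 higher in the arsenic group. That is 0.205% of the members against 2.27% of the table, of which 1.48% were lower and 0.784% higher. These directions rested on arsenic sample 1. Without it the table had 15003 lower and 18158 higher DMCs, against 19994 and 10563 with it, and the members had 1 lower and 5 higher. A call needs a difference of 10 points, and a drop of that size has little room at a low level. Levels were under 20% at 621 of the 974 members, against 492625 of the 1327715 other CpGs on chromosomes 1 to 19. The q threshold alone was passed by 123 members (12.6%) against 2.86% of the table. The median size of the pooled difference was 2.63 points over the 123 members that passed. Over all members it was 0.988 points, against 2.72 points for the other CpGs on chromosomes 1 to 19. At the same time members were measured more evenly, with a median SD of level between control samples of 2.12 points against 6.82 points. With the pool as replicate, no member was called by limma or by the overdispersion F test, and neither called any CpG of the table. An unadjusted p under 0.05 was found by limma at 3 members (0.308%) against 80916 CpGs of the table (6.002%), and by the F test at 26 members (2.67%) against 72797 CpGs (5.4%). Because limma takes the spread of a CpG partly from all CpGs, which varied more, its low share cannot show that members differed less.

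The DMC with the lower level was the minus-strand CpG at chr10:8548914 in L10 (chr10:8548891-8548914, 3 members, intergenic, 30066 b from Ust, a sulfotransferase gene). It had 38.6, 30.6, 31.6, 27.6 and 30.2% in the control samples and 22.3, 14.3, 30.7, 15.4 and 20.1% in the arsenic samples, so arsenic sample 3 lay within the control range. Its pooled difference was -10.9 points (logistic regression, q = 2.0e-08; limma, unadjusted p = 0.0475 and adjusted p = 0.830). The call was lost without control sample 1 (-8.98 points) or arsenic sample 2 (-9.73) or 4 (-9.76). Over its 3 CpGs, L10 had 24.8% ± 5.65 and 16.7% ± 4.61, the largest drop among loci with at least 3 members. The sequence of L10 occurred 73 times in the genome.

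The DMC with the higher level was the single CpG of L4 (chr1:96099408), in a repeat with 51516 matching windows in the genome. It had 49.3, 60.1, 61.9, 54.4 and 55.8% in the control samples and 65.2, 62.0, 69.3, 63.5 and 75.1% in the arsenic samples. The groups did not overlap, but the highest control sample (61.94%) and the lowest arsenic sample (61.99%) were almost level. The pooled difference was 10.3 points (logistic regression, q = 3.7e-06; limma, adjusted p = 0.837). The call was lost without control sample 1 (8.65 points) or 4 (9.88), or arsenic sample 3 (9.68) or 5 (8.39). Of the 974 members, 4 had groups that did not overlap, which is 0.411% against 0.693% of the table. The other 3 differed by 1.86, 2.39 and -5.47 points in L9, L45 and L85.

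L26 (chr13:66062631-66062740, 6 members, intergenic; 17 copies on chromosome 13) had the largest rise among loci with at least 3 members, 42.9% ± 7.65 against 48.9% ± 9.76. Its control samples had 55.4, 45.1, 39.2, 37.8 and 37.0%, and its arsenic samples 31.9, 49.97, 53.9, 52.5 and 56.1%. Arsenic sample 1 was the lowest of all samples and control sample 1 overlapped the highest arsenic samples. The difference of 5.96 points was 10.2 points without arsenic sample 1 and 9.08 points without control sample 1. L53 had the next largest rise, 53.4% ± 1.27 against 58.4% ± 5.94, with arsenic samples 4 and 5 highest at 63.2 and 66.0%. Its difference of 4.94 points was 3.03 points without arsenic sample 5. L98 (chr9:88751029-88751126) had the next largest drop, 84.3% ± 4.74 against 81.4% ± 4.16. Its difference of -2.88 points was -1.62 points without arsenic sample 1, -1.92 without control sample 5 and -4.61 without control sample 3. L60 (chr4:60470998-60471131, near a pseudogene of the major urinary proteins) had one of the widest control spreads, 66.5% ± 4.82 against 66.2% ± 5.36. L41 (chr17:6476216-6476435), among the least methylated loci, had 3.07% ± 0.834 and 3.75% ± 0.873. Across the 98 loci, 55 were higher and 43 lower in the arsenic group, the median difference was 0.203 points, its median size 1.223 points, and 5 loci differed by at least 5 points.

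**Figure D4:**
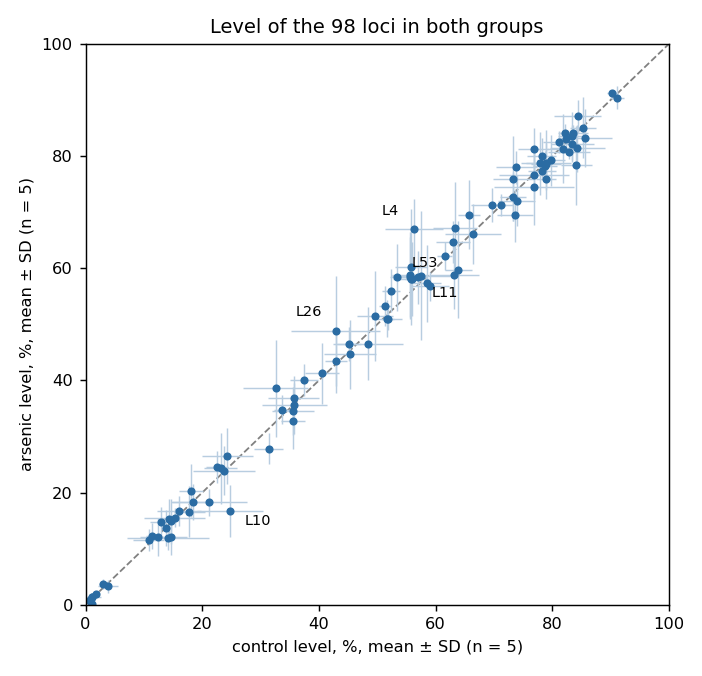
Each point is 1 of the 98 loci, with the mean level in percent of the 5 control samples on the horizontal axis and of the 5 arsenic samples on the vertical axis, and bars of 1 SD. The dashed line marks equal levels. The loci follow the line with a median difference of 0.203 points, and among the labelled loci L4, L11, L26 and L53 lie above it and L10 below it.

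Regions of CpGs at most 100 b apart were then tested with the pool as replicate. Members fell in 118 of 264686 regions. In limma on the summed reads, 0 of the 118 passed an adjusted p under 0.05 with a difference of at least 10 points, as did 0% of all regions, and 1 of the 118 had an unadjusted p under 0.05, the region of L10 (-8.82 points, unadjusted p = 0.0245, adjusted p = 0.760), while 17270 of the 264686 regions did. Coverage was tested as a count. By edgeR's quasi-likelihood test, 0 of the 118 differed in coverage between the groups, as did 0% of all regions, and none of the 118 had an unadjusted p under 0.05, while 13427 regions of the table did. DESeq2 also called 0 of the 118, and 3 of the 167183 regions counted for it. With DESeq2, 1 of the 118 had an unadjusted p under 0.05, while 13584 regions of the table did. Since limma, edgeR and DESeq2 share estimates of spread over all regions, these counts cannot show that member regions differed less. The median log2 fold change of coverage over the 118 regions was 0.026, against -0.0042 for all regions. At the level of loci, the highest sample was a median of 1.59 times the lowest in coverage relative to the sample median, and 77 of 98 loci varied by under 2-fold, with the highest over the lowest at 2.81 in the most variable locus.

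The last comparison asked how far these CpGs drive a coverage-weighted mean, the total of C reads over the total of all reads. Members were 0.0723% of the CpGs. They held 7.31, 6.92, 5.70, 5.57 and 6.19% of all calls in the control samples and 5.79, 4.92, 6.34, 5.91 and 5.73% in the arsenic samples. The chromosome 2 array alone, 52 CpGs, held 2.43 to 5.04% of the calls of a sample, the ribosomal locus 1.46 to 2.27% and the other 382 members 0.520 to 0.597%. Array and ribosomal locus pulled in different directions in every sample but arsenic sample 3, where both lowered the mean. The shift by the array was small, at 0.0631 ± 0.0412 points (control) and 0.203 ± 0.152 points (arsenic). Including the array moved the weighted mean by -0.0310 to 0.384 points, including the ribosomal locus by -0.645 to -0.498 points, and including all members by -0.718 to -0.305 points. The shift by all members was -0.602 ± 0.0708 points (control) and -0.475 ± 0.125 points (arsenic). In the unweighted mean over CpGs the same members moved a sample by -0.0137 to -0.0110 points.

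The difference between the groups in the weighted mean was as large without the members. The weighted mean was 47.8% ± 0.730 (control) and 45.3% ± 5.98 (arsenic), a difference of -2.45 points (two-sided exact permutation test, p = 0.484, where the design allows no p under 0.00794). Without the 974 members the difference was -2.58 points (exact permutation test, p = 0.468), and without weights it was -0.588 points (exact permutation test, p = 0.683). Per sample, the weighted mean without the members was 49.3, 47.7, 47.5, 49.1 and 48.1% in the control samples and 35.7, 44.9, 50.4, 47.5 and 50.4% in the arsenic samples. Arsenic sample 1 was the lowest, and without it the difference was 0.0201 points with the members and -0.0647 points without them (exact permutation tests, p = 0.984 and p = 0.968).

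**Figure D5:**
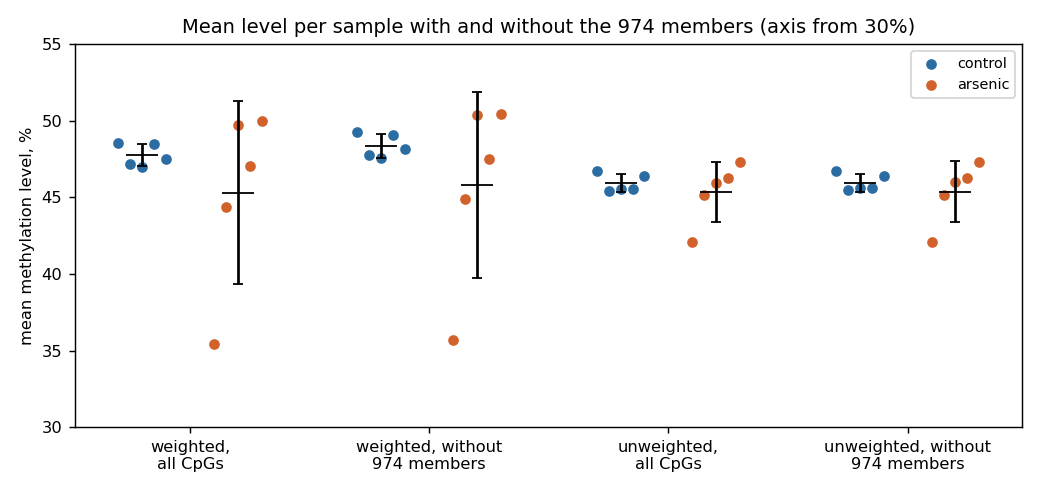
The vertical axis, which starts at 30%, gives the mean methylation level of each sample in percent, weighted by coverage or not, with and without the 974 members. Points are samples and bars mean ± SD (n = 5). Removing the members shifts the weighted mean of every sample by under 1 point and leaves arsenic sample 1 as the lowest, at 35.4% with and 35.7% without them.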

How the data were processed

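RRBS libraries of 5 control and 5 arsenic pools were analysed. The deposited table gives, per CpG cytosine, the counts of all, C and T reads in each sample. Per the paper's methods and the submitters' processing notes, the authors trimmed reads (Trim Galore 0.6.5), aligned them to mm10 (Bismark 0.22.3) and united CpGs covered in all 10 samples at a coverage of at least 10 (methylKit 1.22.0), with strands kept apart. A base difference between repeat copies can read as a methylation difference in such data. The handling of PCR duplicates and overlapping mates is not given in the sources used here, so counts need not be independent molecules. Total counts per sample were 44207245 to 66570870 and median coverage 25 to 40.

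Members, lists, loci named and tests were chosen with earlier results of these data known. Named loci were the 8 of highest mean coverage, the 6 with most members, those in a list of multi-copy genes and, among loci with at least 3 members, the 3 highest and 3 lowest in level, the 3 with the widest SD between control samples, and the 2 largest rises and 2 largest drops. Groupings such as the tRNA, 5S and 4.5S loci were chosen after the values were seen. A locus level is the mean over its members, and coverage ratios divide by the median coverage of the sample. Copies were sought with BLAST 2.17.0+ against GRCm38, with sequences and small RNA genes from RefSeq and other genes from GENCODE vM21.

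CpGs were tested by logistic regression on pooled counts with q values, by an F test with overdispersion and by limma 3.58.1 on log2 ratios with 1 read added. Regions were tested with limma and with edgeR 4.0.16 (quasi-likelihood, TMM), and with DESeq2 1.42.0 as an alternative (R 4.3.3), with Benjamini-Hochberg adjustment. Weighted means were compared by exact permutation over samples. SciPy 1.17.1 supplied the chi-square and F distributions of the logistic regression and the F test. The p-values of the logistic regression reflect read counting on pooled counts. Those of the Mantel-Haenszel test, used per CpG with a replicate block, also reflect read counting. Those of the other tests use the spread between pools, which limma, edgeR and DESeq2 estimate partly from the other CpGs or regions. At chr17:39847778 in L45, for example, the unadjusted p was 0.00385 by the F test and 0.304 by limma. Scripts were tested on simulated data.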

Additional observations from a re-analysis of the deposited data

Results flagged for a closer look

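In 6 of 106 groups of 5 samples examined (levels and coverage ratios of the 21 named loci, shares of calls and weighted levels), 1 sample stood apart from the other 4 by Dixon's test (critical value 0.71), and chance gives about 1 in 20. Coverage over the sample median stood apart at L11 in arsenic sample 3 (27.1, others 9.71 to 13.98), at L36 in arsenic sample 1 (71.1, others 51.6 to 55.8), at L55 in control sample 1 (8.99, others 12.9 to 13.1) and at L78 in arsenic sample 2 (35.7, others 52.4 to 58.2). Level stood apart at L26 in arsenic sample 1 (31.9%, others 49.97 to 56.1%) and at L50 in arsenic sample 5 (92.3%, others 90.8 to 91.1%).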

How the results depend on the processing

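The count of 2 DMCs among the members was 0 by the F test, by limma, with reads thinned to 10 or to 30, and with a difference of at least 20 points. It was 18 of 1675 CpGs with a membership threshold of 200 reads and 0 of 640 with 500 reads, against 2.27% of the table. CpGs with a mean coverage of 200 to 300 reads gave 16 DMCs of 701 (2.28%), close to the share of the table. Leaving out 1 sample at a time gave 1 to 6 DMCs among the 974 members, against 24654 to 37292 of the 1348062 CpGs of the table. There were 6 without arsenic sample 1 (33161 in the table), 3 without control sample 1, and 1 without control sample 4 or arsenic sample 2, 3, 4 or 5. Over the whole table, DMCs numbered 0 by the F test, 46 and 9722 with reads thinned to 10 and 30, 9513 at 20 points and 65955 at a q of 0.05. The difference in the weighted mean ranged from -3.62 to 0.0201 points on leaving out 1 sample, and it reversed, to 0.0201, without arsenic sample 1. Without the chromosome 2 loci it was -2.59 and without the ribosomal locus -2.42, both chosen after seeing the data. The cause of these changes was not tested. Samples with the same replicate number did not deviate together (correlations of -0.0149 to 0.0367 over all CpGs and -0.146 to 0.160 over the members, the own number highest in 1 of 5 in each), so no pairing by number was seen in the levels. Whether pools were collected or processed in pairs is not stated by the labels or the paper, and these values cannot decide it. With a replicate block there were 2 DMCs among the members by a Mantel-Haenszel test on read counts, against 27114 in the table. The weighted difference with this block was -2.45 points (exact sign-flip permutation, p = 0.562), and 0 member regions were called. Region calls among the members were 0 under the alternatives and samples left out that were run. Of the 21 named loci, 9 changed the sign of their difference on leaving out 1 sample.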
